A study of Mus musculus with 7 samples.

Results

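The miRNAs described here are the mature products of miR-470, miR-871, miR-743, miR-741 and miR-881 in mouse testis. They were chosen by number, as every miRNA of the deposited table that carries one of these numbers with any letter or arm, and the rule uses no measured value. The rule found 10 of 331 listed miRNAs: mmu-miR-470-5p, mmu-miR-871-3p, mmu-miR-871-5p, mmu-miR-741-3p, mmu-miR-741-5p, mmu-miR-881-3p, mmu-miR-743a-3p, mmu-miR-743a-5p, mmu-miR-743b-3p and mmu-miR-743b-5p. The partner arms miR-470-3p and miR-881-5p have no row in the table used here.

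Small RNA libraries were made from testes of the outbred mouse strain CD1 to follow the miRNAs while prepuberal testes progress ex vivo. T6 and T10 are testes of 6.5 and 10.5 days post-partum (dpp) mice taken without culture, which the labels round to 6 and 10 days, and TAD is the uncultured testis of a mouse of 2 months. T6-12K and T10-12K are explants of the same starting ages kept for 12 days at a gas-liquid interface on agarose with KSR, a serum replacement, and T6-12A and T10-12A are the matching explants with AlbuMAX I, a lipid-rich bovine serum albumin. By the study's account, testes of the younger age lie before the onset of meiosis and those of the older age have entered it, and an explant was a whole testis at the younger age and a piece of a testis at the older one.

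Each condition had 1 library. No difference between conditions could therefore be tested against the variation between animals or explants, and every interval below is a 95% counting interval, which covers counting error only and takes reads as independent molecules. The reads on listed miRNAs numbered between 7075528 and 13397407 in 6 libraries and 1628770 in TAD. Counting precision follows a member's own reads, and the members' summed reads were fewest in T6-12K (179277) and next fewest in TAD (209199). Levels are given as CPM, reads scaled to the same total over the listed miRNAs in each library, and a ratio of CPM says nothing of the total miRNA per cell. T6-12K stood apart from the other cultures in the members and in some lists of marker miRNAs, though not in the endothelial list. Summed ratios that pool it with other cultures are given with and without it. The correlations over the libraries and the counts of lowest levels are given only with it. In bulk testis RNA, fewer cells of a type and less RNA per cell cannot be told apart.

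Mature miRNAs are cut from hairpin transcripts, and 1 or both arms (5p and 3p) are loaded into Argonaute proteins, where bases 2 to 8, the seed, lead the pairing with target mRNAs. The 5 numbers belong to a cluster of related miRNAs of the miR-506 family on the X chromosome, between the protein-coding genes Slitrk2 and Fmr1. This cluster is known for its preferential expression in the testis, mainly in male germ cells, and for fast sequence change between mammals.

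The sequences show how alike and how different these relatives are. All 10 were found in RefSeq (GRCm38.p6), from which the sequences were taken. They are written 5′ to 3′ in the order of their mean level, with the seed in capitals:
miR-470-5p: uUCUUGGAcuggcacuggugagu
miR-871-3p: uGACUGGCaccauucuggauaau
miR-741-3p: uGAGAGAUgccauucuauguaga
miR-881-3p: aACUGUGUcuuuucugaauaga
miR-871-5p: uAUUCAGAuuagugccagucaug
miR-743b-3p: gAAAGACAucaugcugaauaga
miR-743b-5p: uGUUCAGAcugguguccauca
miR-743a-3p: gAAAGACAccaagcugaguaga
miR-743a-5p: uAUUCAGAuuggugccugucau
miR-741-5p: uACGUAGAuugguaccuaucaug

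The 10 miRNAs carry 8 distinct seeds. One seed is shared by miR-743a-3p and miR-743b-3p and another by miR-871-5p and miR-743a-5p, and none of the 4 most abundant members shares its seed with another RefSeq mature miRNA. Of the 331 names, 288 were found in RefSeq, and no member has a listed miRNA of identical sequence among them. The most abundant pair share an unbroken run of 9 bases although their seeds differ. The run, in capitals, lies at bases 7 to 15 of miR-470-5p and at bases 2 to 10 of miR-871-3p, where it holds the whole seed, and among 1679 RefSeq mature mouse miRNAs it was found in these 2 only:
miR-470-5p: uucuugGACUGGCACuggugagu
miR-871-3p: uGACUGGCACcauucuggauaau

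The miR-743 pair differ by 3 bases on the 3p arm, counted from 1 at the 5′ end as U9C, U12A and A18G from miR-743b-3p to miR-743a-3p, all outside the seed. The differing bases are in capitals:
miR-743b-3p: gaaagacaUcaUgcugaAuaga
miR-743a-3p: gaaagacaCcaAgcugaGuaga

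How reads that fit several miRNAs were assigned is not given in the sources used here. Identical sequences of other families were listed under separate names, mostly with unequal values. In T6, miR-465b-3p and miR-465c-3p had 2485 reads each and miR-465a-3p, of the same sequence, had 1243, while miR-199a-3p had 25815 and the identical miR-199b-3p 12617. Reads of 1 sequence thus appear under more than 1 name, and the separation of the near-identical miR-743a-3p and miR-743b-3p rests on those 3 bases.

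The 6 hairpins lie on the minus strand of chromosome X of GRCm38.p6 within 37.3 kb, at chrX:66776757-66814025, and none overlaps an annotated gene that is not a miRNA. From Mir470 (chrX:66813951-66814025) in the direction of the strand, Mir871 starts 3521 bases downstream, Mir881 12004, Mir741 17150, Mir743b 36693 and Mir743, the gene of miR-743a, 37207. The hairpin of Mir871 (chrX:66810428-66810504) is shown because the ratio of its arms differed between libraries, as described further on. Its arms are in capitals, first miR-871-5p and then miR-871-3p:
Mir871: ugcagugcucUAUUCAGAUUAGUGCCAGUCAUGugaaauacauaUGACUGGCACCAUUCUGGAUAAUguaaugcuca

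In TAD, the summed level of the listed arms was 64587 CPM for Mir470, 37215 for Mir871, 13632 for Mir881, 11934 for Mir741, 989 for Mir743b and 82.9 for Mir743, which is the order of the hairpins along the strand. T6 had the same order but for Mir741 (4963 CPM), which stood above Mir881 (2785 CPM). The order does not extend to the other hairpins of the cluster. Mir880, 13418 bases downstream of the start of Mir470 and between Mir881 and Mir741, reached 73.1 CPM in TAD.

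**Figure D1:**
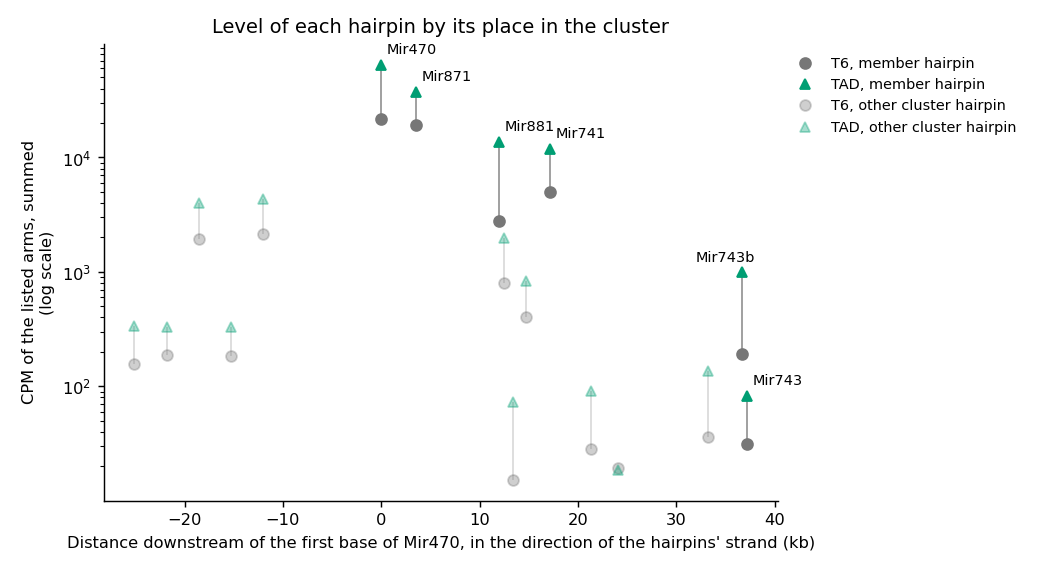
Summed CPM of the listed arms of each hairpin (log scale) against the distance of its first base from that of Mir470, in kb in the direction of the strand, in T6 (circles) and TAD (triangles), with the hairpins of the 5 numbers in full colour and the others of the cluster pale. Mir470, Mir871, Mir881 and Mir741 stand above all other hairpins drawn in both libraries, while Mir743b and Mir743 (82.9 CPM in TAD) lie within the range of the others. Mir201 and Mir547, more than 1 Mb upstream, are not drawn, and the miR-465 hairpins share reads.

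The 10 members together took 4.89% of the reads on listed miRNAs in T6 (interval 4.88 to 4.91), 8.96% in T10 and 12.8% in the adult (12.8 to 12.9). Among the cultures they took 1.80% (T6-12K) and 5.59% (T10-12K) with KSR and 4.81% (T6-12A) and 6.54% (T10-12A) with AlbuMAX I. The lowest share was thus in the 6.5 dpp testis cultured with KSR and the highest in the adult, and all neighbours in this order were apart by more than counting error. TAD stood 7.12-fold above T6-12K (7.07 to 7.16).

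miR-470-5p was the most abundant member in every library and ranked between 3 and 9 of the 331 miRNAs. Uncultured, it had 21742 CPM in T6, 39258 in T10 and 64587 in the adult. With KSR it had 8705 CPM from 6.5 dpp and 28645 from 10.5 dpp, and with AlbuMAX I 23165 and 32497. T10 and TAD were thus above all 4 cultured libraries, while T6 lay above T6-12K and below the other cultures. miR-871-3p ranked between 5 and 13. It had 17386 CPM in T6, 30653 in T10 and 33111 in the adult, 6069.8 and 16058 in the KSR cultures from 6.5 and 10.5 dpp, and 15299 and 20869.9 in those with AlbuMAX I. In CPM, and in contrast to miR-470-5p, its T10 and TAD levels were close to each other. As deposited, it was miR-470-5p whose T10 and TAD values were close (340846 and 335742), while miR-871-3p had 266132 and 172124. For both miRNAs, all neighbours in the order of CPM over the 7 libraries were apart by more than counting error.

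The next level was formed by miR-741-3p and miR-881-3p. miR-741-3p had 4959.5 CPM in T6, 9606 in T10 and 11922 in the adult, and in culture 1686 and 5352 with KSR and 4719 and 6213 with AlbuMAX I, in each case from 6.5 and then from 10.5 dpp. In the same order, miR-881-3p had 2785, 6046 and 13632 CPM without culture, 1131.5 and 4202 with KSR and 3320.25 and 4268 with AlbuMAX I. It was below miR-741-3p in 6 libraries and above it in TAD alone. miR-871-5p, the less abundant arm of its hairpin, had 1839.6, 3509 and 4104 CPM in T6, T10 and TAD, 368 and 1340.0 with KSR and 1251 and 1249 with AlbuMAX I. All 4 cultures lay below each uncultured testis, and 3 of them within a narrow range. The share of all listed miRNAs with such an order was not counted, and the median over all listed miRNAs was itself lower in each culture than in its starting testis.

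The miR-743 arms and miR-741-5p were far lower. miR-743b-3p had 166, 397 and 831 CPM in T6, T10 and TAD, 66.1 and 239 in T6-12K and T10-12K, and 251 and 232 in T6-12A and T10-12A. Among the 3 cultures above T6-12K, neighbours in the order of levels did not differ beyond counting error. miR-743a-3p had 23.2, 50.2 and 49.7 CPM in T6, T10 and TAD, 2.82 (28 reads) and 12.9 in T6-12K and T10-12K, and 19.0 and 14.4 in T6-12A and T10-12A. Its T10 and TAD levels could not be told apart (ratio of T10 to TAD 1.01, 0.801 to 1.29). miR-743b-5p ranged from 12.8 CPM in T6-12K to 158 in TAD, miR-743a-5p from 1.91 to 33.2 and miR-741-5p from 1.11 (11 reads) to 12.3, again between T6-12K and TAD. For miR-741-5p, TAD and T10 did not differ beyond counting error either (ratio 1.68, 0.983 to 2.74), and 4 of its 6 steps between neighbouring libraries were within counting error, against 0 of 6 for the 4 most abundant members.

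**Figure D2:**
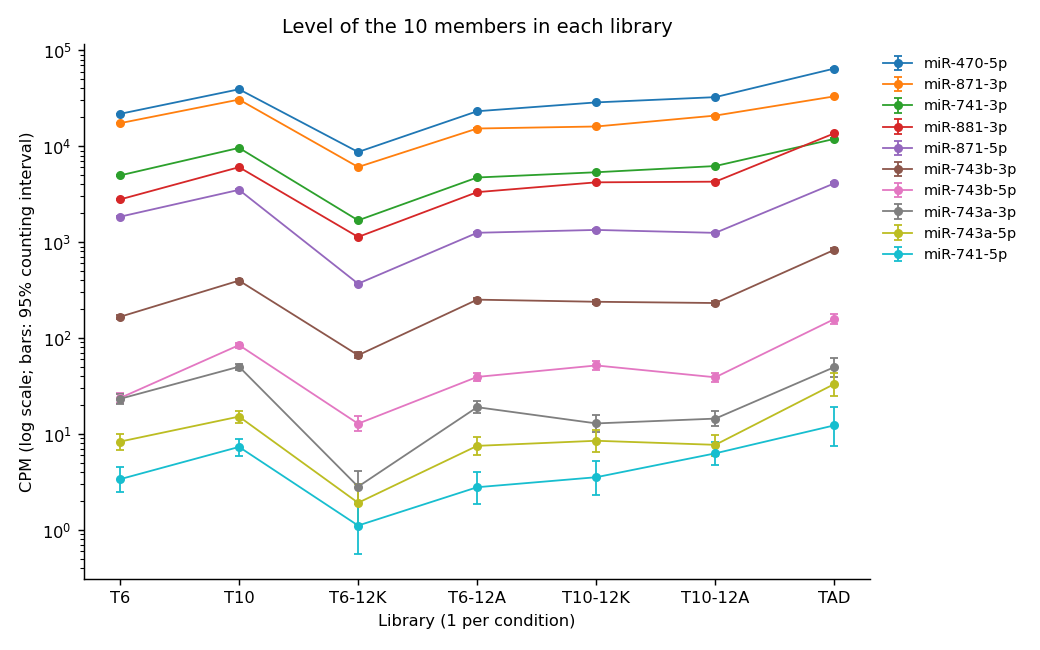
CPM (log scale) of each of the 10 members in the 7 libraries, with bars for the 95% counting interval; the lines only join the points of a member. All 10 curves have their lowest point in T6-12K, and 9 of 10 have their highest in TAD, where miR-470-5p reached 64587 CPM.

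All 10 members had their lowest CPM in T6-12K, against 32.3% of all listed miRNAs, and 9 of 10 had their highest in TAD, against 29.3%. The exception was miR-743a-3p. T6-12K remained the lowest library of 9 of 10 members with median-of-ratios factors or the trimmed mean of M-values, whereas the place of the highest depended on the scaling: TAD was highest for all 10 with those scalings, for 5 with the values as deposited and for 0 when reads were compared as if all libraries were equally deep.

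The comparison of T10 with T6 asked how the level changes as meiosis begins in vivo. All 10 members were higher in T10, by 1.76-fold (miR-871-3p, 1.75 to 1.77) to 3.57-fold (miR-743b-5p, 3.15 to 4.05), and their sum was 1.83-fold higher. Of all listed miRNAs with a ratio, 145 of 326 were higher in T10. Of the members, 5 of 10 were at least 2-fold higher (miR-881-3p, miR-743b-3p, miR-743b-5p, miR-743a-3p and miR-741-5p), against 10.9% of all listed miRNAs. The median log2 ratio was 1.03 over the members, 0.79 over the 16 other listed miRNAs of the X-linked cluster, −0.17 over the 23 other X-linked miRNAs and −0.06 over all. The value of 0.79 lies at the ratios of miR-465a-3p, miR-465b-3p and miR-465c-3p, which are identical in sequence. The members' median stood 1.09 above that of all miRNAs with reads in both libraries, a difference on the log2 scale that no scaling of whole libraries can alter. Every scaling kept all 10 higher in T10. As deposited, 7 of 10 were at least 2-fold higher, against 11.8% of all miRNAs with reads in both libraries. On the scale of the trimmed mean of M-values 2 of 10 were, against 7.74%.

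Against the prepuberal testes, the adult had a summed level 2.62-fold that of T6 (2.61 to 2.64) and 1.43-fold that of T10 (1.43 to 1.44). miR-881-3p, miR-743b-3p and miR-743a-5p were at least 2-fold above both, 3 of 10 members, against 16.9% of all listed miRNAs. miR-881-3p was 4.89-fold above T6 and 2.25-fold above T10, and miR-743b-3p 5.00-fold and 2.09-fold. miR-871-3p had the smallest excess over T6, 1.90-fold, and was 1.08-fold above T10. No member was 2-fold lower in TAD than both. The members' median log2 ratio was 1.72 to T6 and 0.73 to T10, that of the other cluster miRNAs was 1.38 and 0.55, and that of the other X-linked miRNAs was −1.37 and −1.53.

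The direction against T10 depended on the scaling. With the values as deposited, 5 of 10 members were lower in TAD than in T10 and the sum was 0.858-fold. When reads were compared directly, all 10 were lower in TAD than in T6 and in T10, since TAD had the fewest reads. Free of the scaling, the members' median stood 1.66 (T6) and 0.84 (T10) above the median of all miRNAs with reads in both libraries, on the log2 scale. Both comparisons use the same TAD library and are not independent.

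Next, the cultured testes were set against their starting points. In T6-12K, all 10 members were lower than in T6, as were 263 of 329 listed miRNAs with a ratio. The members' sum was 0.369-fold (0.367 to 0.371), and 9 of 10 were at least 2-fold lower, against 56.8% of all listed miRNAs. The exception was miR-743b-5p at 0.541-fold. In T6-12A the sum was 0.982-fold that of T6, and 0 of 10 members were at least 2-fold lower, against 37.8%. There, miR-743b-5p (1.66-fold, 1.43 to 1.93), miR-743b-3p (1.51-fold), miR-881-3p (1.19-fold) and miR-470-5p (1.07-fold) were above T6, and miR-871-5p was the lowest relative to T6, at 0.680-fold. Without T6-12K, the comparison of the 6.5 dpp cultures with T6 thus gave 0.982-fold, close to equality.

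From 10.5 dpp, both cultures were lower than T10 in all 10 members. Of all listed miRNAs with a ratio, 252 of 329 were lower with KSR and 248 of 331 with AlbuMAX I. On the scale of the trimmed mean of M-values, 6 of 10 members were lower with KSR and 5 of 10 with AlbuMAX I. The sum was 0.624-fold with KSR and 0.730-fold with AlbuMAX I. With KSR, miR-871-5p, miR-743a-3p and miR-741-5p were at least 2-fold below T10, 3 of 10, against 39.9% of all listed miRNAs, and with AlbuMAX I miR-871-5p, miR-743b-5p and miR-743a-3p were, again 3 of 10, against 41.4%. miR-743a-3p had the largest difference in both, with 0.256-fold (0.203 to 0.319) and 0.287-fold (0.235 to 0.349), whereas its near copy miR-743b-3p stood at 0.601-fold and 0.584-fold.

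These culture ratios have to be read against all miRNAs, whose CPM was itself mostly lower after culture. The median log2 ratio over all listed miRNAs was −1.21 for T6-12K, −0.63 for T6-12A, −0.76 for T10-12K and −0.78 for T10-12A. Relative to the median of all miRNAs with reads in both libraries, the members' median was −0.39 for T6-12K, 0.51 for T6-12A, −0.13 for T10-12K and 0.02 for T10-12A. Scalings that set this median near 0 removed or reversed much of the difference: with the trimmed mean of M-values the members' sum was 0.741-fold (T6-12K), 1.43-fold (T6-12A), 1.06-fold (T10-12K) and 1.24-fold (T10-12A) of the starting point.

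The choice of supplement was compared at each age. At 6.5 dpp, all 10 members in T6-12A exceeded T6-12K by at least 2-fold, against 26.6% of all listed miRNAs, from 2.51-fold (miR-741-5p, 1.22 to 5.55) and 2.52-fold (miR-871-3p, 2.50 to 2.54) to 6.74-fold (miR-743a-3p, 4.53 to 10.4). Their sum was 2.66-fold higher (2.65 to 2.68). At 10.5 dpp, 0 of 10 were at least 2-fold higher, against 5.44%, the sum was 1.17-fold higher, and 6 members were above 1 and 4 below, from 0.752-fold for miR-743b-5p (0.646 to 0.876) to 1.77-fold for miR-741-5p (1.08 to 2.98). Relative to all miRNAs with reads in both libraries, the members' median was 0.96 higher at 6.5 dpp and 0.12 higher at 10.5 dpp on the log2 scale. All 10 remained higher in T6-12A under every scaling. After median-of-ratios scaling 5 of 10 were at least 2-fold higher, against 10.6% of all miRNAs with reads in both libraries. After scaling by the trimmed mean of M-values 7 of 10 were, against 12.9%.

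The 6.5 dpp difference rests on T6-12K. With KSR, the summed level from 10.5 dpp testes was 3.10-fold that from 6.5 dpp testes (3.08 to 3.12), while with AlbuMAX I it was 1.36-fold (1.36 to 1.37). The 3 other cultures therefore differed among themselves far less than each of them differed from T6-12K.

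The adult testis was above every culture for all 10 members. Of all listed miRNAs with a ratio, TAD was above T6-12K for 209 of 320, T6-12A for 182 of 324, T10-12K for 188 of 318 and T10-12A for 191 of 320. TAD was at least 2-fold above all 4 cultured libraries for 6 of 10 (miR-881-3p, miR-871-5p and the 4 miR-743 arms), against 22.7% of all listed miRNAs. Summed over the members, TAD was 7.12-fold and 2.30-fold the KSR cultures from 6.5 and 10.5 dpp and 2.67-fold and 1.96-fold those with AlbuMAX I. When reads were compared directly, without regard to depth, the direction reversed for 3 of these 4 sums.

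**Figure D3:**
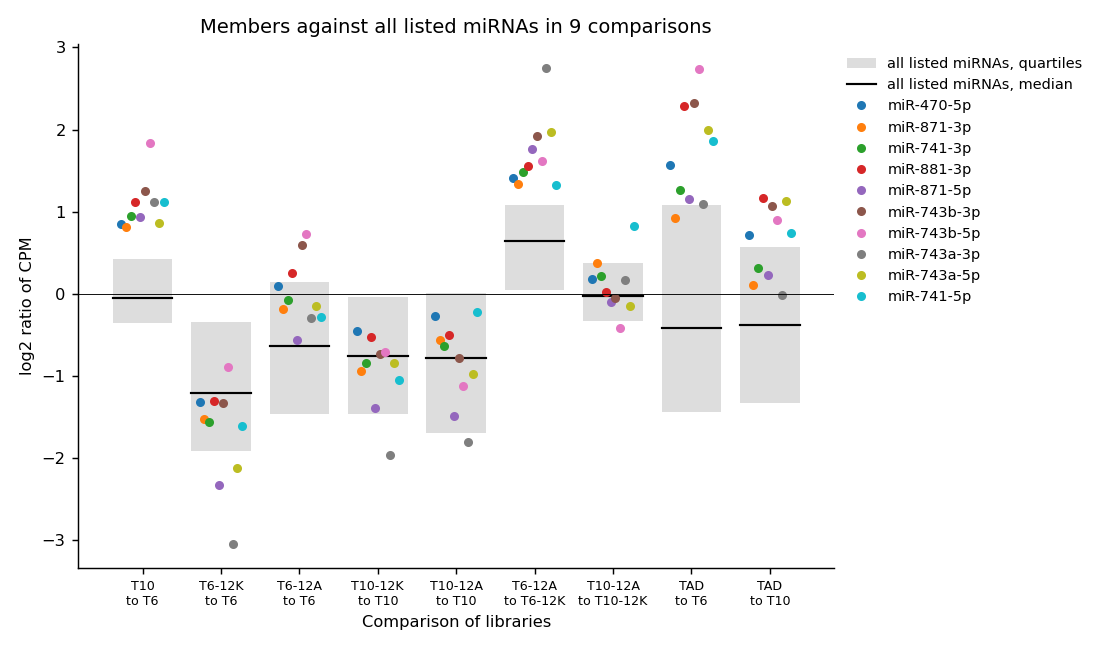
log2 ratio of CPM of each of the 10 members (coloured points) in 9 comparisons of libraries, over the quartiles (grey) and the median (line) of all listed miRNAs. All 10 points lie above the upper quartile for T10 to T6 and for T6-12A to T6-12K, and they scatter around the median for the 10.5 dpp cultures against T10. Comparisons with a library in common are not independent.

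Marker miRNAs of other cells moved with some of these differences. The list for germ cells in and after meiosis (miR-34b, miR-34c and miR-449 arms, 6 of 6 listed) summed to 74.0 CPM in T6, with miR-34b-3p at 0, to 164 in T10 and to 25799 in the adult. In culture it summed to 614 and 1972 with KSR from 6.5 and 10.5 dpp and to 1499 and 1843 with AlbuMAX I. It was thus lowest in T6, not in T6-12K, although T6-12K was the lowest of the cultures. The mesenchyme and smooth muscle list (4 of 4 listed) summed to 105862 CPM in T6, to 147779 in T10 and to 258923 in the adult, and in the cultures it ranged from 158159 to 213766, with the highest value in T6-12K. This sum does not give the course of each of its miRNAs. Its member miR-199a-3p went the other way, with 25815 of 13363594 reads in T6 and 1161 of 1628770 in TAD. In T6-12K, miR-199a-3p had 10112 of 9934580 reads, a smaller share than the 14975 of 10793767 in T6-12A. The erythroid list (3 of 3 listed) was highest in T6-12K, at 2554 CPM against 445 to 1688 elsewhere, although its defining members miR-451a and miR-144-3p were at 0 in all 4 cultures. The gonadal somatic list, the miR-202 arms (2 of 2 listed), was lowest in T6-12K, at 93.7 CPM against 135 to 234 in the others. The endothelial list (2 of 2 listed) ranged from 124 CPM in T10-12K to 405 in TAD, and the leukocyte list (2 of 4 listed) from 5.54 in T6-12K to 45.4 in TAD. The part of these cells in the members' levels was not tested.

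Ratios between members within a library do not depend on the scaling. The proportion of miR-470-5p in the members' reads was between 43.8% and 51.2%, and that of miR-871-3p was 35.5% in T6 and 34.2% in T10, between 28.7% and 33.6% in the cultures and 25.8% in TAD. The ratio of miR-871-3p to miR-470-5p was 0.800 in T6 and 0.781 in T10, against 0.513 in the adult. In culture it was 0.697 and 0.561 with KSR from 6.5 and 10.5 dpp, and 0.660 and 0.642 with AlbuMAX I. Both prepuberal testes were thus above all other libraries, and the nearest of the others, T6-12K, had 0.893-fold the ratio of T10 (0.883 to 0.903). This split was not particular to the pair. It was also found for miR-741-3p and miR-871-5p to miR-470-5p, for miR-881-3p to miR-741-3p and for miR-743b-3p to miR-743a-3p. The arms of miR-743a showed it with overlapping counting intervals. The other pairs of members compared did not, and the share over all pairs of listed miRNAs was not counted. The run of bases that miR-871-3p and miR-470-5p share was shown above.

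TAD stood apart for miR-881-3p, though not for this member alone. The share of miR-881-3p in the members' reads was 5.69% to 7.52% in 6 libraries and 10.6% in TAD. The ratio of miR-881-3p to miR-470-5p was 0.128, 0.154 and 0.211 in T6, T10 and TAD, 0.130 and 0.147 in T6-12K and T10-12K, and 0.143 and 0.131 in T6-12A and T10-12A. The adult value was 1.37-fold that of T10, the next highest (1.35 to 1.39), and none of the 4 cultures exceeded T10. The shares of miR-743b-3p, miR-743b-5p and miR-743a-5p were highest in TAD too, the last with overlapping counting intervals. All remaining members had their highest share in another library. The ratio of miR-743b-3p to miR-470-5p was 0.0129 in TAD, 1.19-fold that of T6-12A, the next highest (1.11 to 1.27).

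The near copies miR-743b-3p and miR-743a-3p, like the other pairs with the split described above, changed their proportion between prepuberal testes and all other libraries. The ratio of the former to the latter was 7.17 in T6 and 7.90 in T10. It was 23.5 in T6-12K (16.1 to 35.6), 18.6 in T10-12K, 13.2 and 16.0 in the AlbuMAX I cultures from 6.5 and 10.5 dpp, and 16.7 in the adult (13.4 to 21.2). T6-12A, the lowest of the other libraries, was 1.67-fold T10 (1.42 to 1.97), and the cultures were on the side of the adult. The 5p arms of the same hairpins had a ratio of 2.85 in T6 (2.29 to 3.57) and between 4.76 and 6.68 in the other 6 libraries, so that T10 was there with the cultures and the adult.

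**Figure D4:**
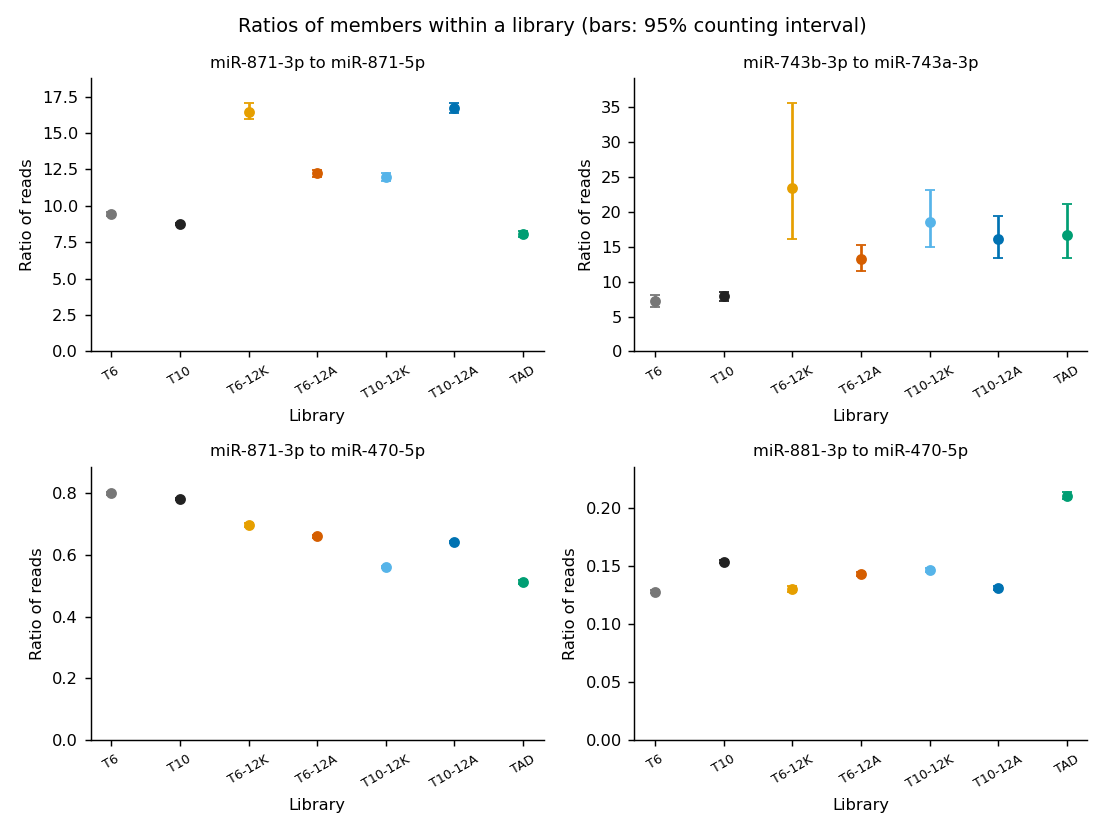
Ratio of reads of 4 pairs of members in each of the 7 libraries, on axes that start at 0, with bars for the 95% counting interval. The ratio of miR-871-3p to miR-871-5p was higher in the 4 cultures (12.0 to 16.7) than in T6, T10 and TAD (8.07 to 9.45), that of miR-743b-3p to miR-743a-3p was lower in T6 and T10 than elsewhere, and that of miR-881-3p to miR-470-5p was highest in TAD.

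Another ratio separated cultured from uncultured testes. Of the arms of the miR-871 hairpin printed above, there were 9.45 reads of 3p for each read of 5p in T6, 8.73 in T10 and 8.07 in the adult. In culture there were 16.5 and 12.0 with KSR from 6.5 and 10.5 dpp, and 12.2 and 16.7 with AlbuMAX I. All 4 cultures were above all 3 uncultured testes, and the lowest culture had 1.27-fold the ratio of the highest uncultured testis (1.24 to 1.30). The 2 highest values, in T6-12K and T10-12A, came from different ages and media. Of 71 hairpins with both arms listed, 16 had at least 50 reads of each arm in every library, which left out miR-741 and miR-743a. Such a separation was found for 3 of these 16, 18.8%: miR-871, miR-145a and miR-423. A further 2 hairpins were separated in the opposite direction.

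The other hairpins among the members behaved differently. For miR-743b, the 3p to 5p ratio ranged from 4.61 in T10-12K to 7.03 in T6, with cultured and uncultured libraries overlapping. For miR-743a it was 2.79, 3.32 and 1.50 in T6, T10 and TAD, 1.47 and 1.52 in T6-12K and T10-12K, and 2.53 and 1.88 in T6-12A and T10-12A. The 3p arm was thus the more abundant in every library, although the interval for T6-12K (0.794 to 2.79) included equality. miR-741 had the most unequal arms, with 971 to 1698 reads of 3p for each read of 5p, and the highest and lowest of these could not be told apart (ratio of TAD to T6-12A 0.572, 0.325 to 1.01).

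Relative to miR-470-5p, miR-871-5p was lower in culture too, but this uses the same miR-871-5p reads as the arm ratio and is not independent of it. miR-871-5p had 0.0846 reads for each read of miR-470-5p in T6, 0.0894 in T10 and 0.0635 in TAD, against 0.0423 and 0.0468 in the KSR cultures and 0.0540 and 0.0384 in the AlbuMAX I cultures, from 6.5 and 10.5 dpp. The groups did not overlap, and TAD was 1.18-fold the highest culture (1.14 to 1.21). Among the pairs of members compared, only this ratio and the arm ratio of miR-871 separated in this way. The share of all pairs of listed miRNAs that do so was not counted. miR-871-3p did not show this separation against miR-470-5p.

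**Figure D5:**
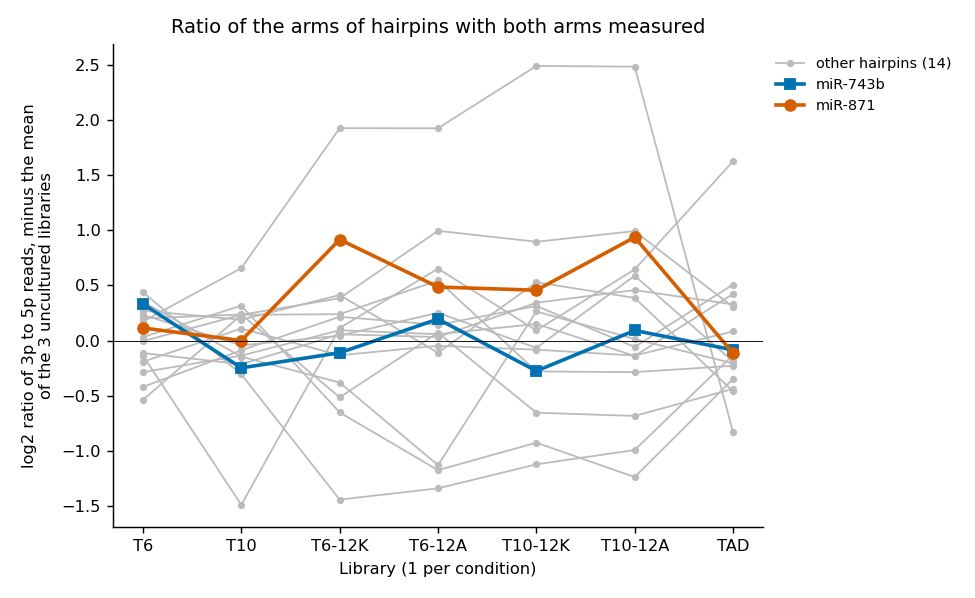
log2 ratio of 3p to 5p reads in each library of 16 hairpins with at least 50 reads of each arm in every library, less the mean of the 3 uncultured libraries, for miR-871 (orange), miR-743b (blue) and 14 others (grey). miR-871 is above 0 in all 4 cultures and near 0 in T6, T10 and TAD, while miR-743b varies on both sides of 0.

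To find the miRNAs with the most similar course, Pearson's r of log2(CPM + 1) was computed over the 7 libraries between each member and 316 other miRNAs with at least 50 reads in at least 1 library. It is a description, since the points share libraries and the scaling, and it was not computed without T6-12K. Of the 30 places (3 for each member), 27 were taken by other miRNAs of the X-linked cluster, which made up 16 of the 316 candidates. For miR-743a-3p, the 3 places went to miR-465c-3p, miR-465b-3p and miR-465a-3p, which are 1 sequence under 3 names. miR-883a-3p and miR-465a-5p were named for 8 members each and miR-878-5p for 6. The closest to miR-470-5p was miR-883a-3p (r = 0.973), with 36.4, 91.4 and 138 CPM in T6, T10 and TAD, 11.2 and 41.0 in T6-12K and T10-12K, and 40.3 and 41.8 in T6-12A and T10-12A. The highest r was between miR-743a-5p and miR-465a-5p (0.995). The 3 other places were taken by miR-203-3p for 2 members and miR-19b-3p for 1. Between members, r ranged from 0.847 to 0.994 with a median of 0.952 over 45 pairs.

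The 16 other listed miRNAs of the cluster (miR-201, miR-463, miR-465, miR-471, miR-547, miR-878, miR-880 and miR-883 arms) were counted in the same comparisons. T10 was above T6 for 15 of 16, T6-12A was at least 2-fold above T6-12K for 14 of 16, and 12 of 16 had their lowest CPM in T6-12K. In these counts and the next, miR-465a-3p, miR-465b-3p and miR-465c-3p, 1 sequence under 3 names, are counted 3 times. In the 10.5 dpp cultures, 9 (KSR) and 11 (AlbuMAX I) of the 16 were at least 2-fold below T10, against 3 of 10 members in each. miR-547-3p and miR-201-5p, which lie far from the rest, stood at 1.02-fold and 1.24-fold of T6 in T6-12K and at 2.66-fold and 3.50-fold in T6-12A, and both were above T10 in both 10.5 dpp cultures. Of the 23 X-linked miRNAs outside the cluster, 7 were higher in T10 than in T6, 4 were at least 2-fold higher in T6-12A than in T6-12K, and 1 was lowest in T6-12K.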

How the data were processed

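Small RNA libraries of 7 conditions, with 1 library each, were analysed. According to the study, adaptors were removed, quality was assessed with FastQC, Bowtie placed the reads on mm10 and then on miRBase 21, and miRNAs under 50 reads were discarded. The submitters' processing notes also name HTSeq and DESeq. The authors deposited 1 normalized signal per miRNA and library, and the 7 files of single libraries held the same values as the table of the series. How reads matching more than 1 miRNA were counted is not given in the sources used here.

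Within a library the deposited signal was a whole multiple of 1 number (0.615 to 3.19), and dividing by it gave whole reads (within 0.1 read) for 100% of the values under 10000 reads. This step and the scalings were tested on simulated data. Reads were divided by the total over the 331 listed miRNAs to give CPM. The design had assumed exact intervals throughout. Shares and ratios of 2 libraries have exact (Clopper-Pearson) 95% intervals, while ratios of ratios and of means have intervals on the log scale. In lists and medians, a value of 0 was set to 5 reads, the lowest value listed above 0; no member was at 0. No count model was fitted and no p-value is given, since no condition was replicated.

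Members were chosen by miRNA number. The other miRNAs named are those of the X-linked cluster and, for each member, the 3 with the highest Pearson correlation of log2(CPM + 1). The members, lists and tests were chosen with earlier results of these data known. Sequences and positions come from RefSeq on GRCm38.p6, and positions were the same in the mouse GENCODE release M21. Alternatives were the deposited values, reads without regard to depth, median-of-ratios factors, the trimmed mean of M-values, 1 CPM added, a mean of at least 100 CPM, other folds (4), baselines and floors, only members with 50 reads in every library and, chosen after seeing the data, the cultures without 1 library. Computations ran in Python 3.11.15 with pandas 2.3.3, scipy 1.17.1 and numpy 2.4.6, and figures were drawn with matplotlib 3.10.9.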

Additional observations from a re-analysis of the deposited data

Results flagged for a closer look

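For 4 members, AlbuMAX I and KSR differed in opposite directions at the 2 ages, with a higher level under AlbuMAX I at 6.5 dpp and a lower one at 10.5 dpp. With 1 library per condition, the difference between the ages was not tested. As log2 ratios of AlbuMAX I to KSR, miR-871-5p had 1.76 at 6.5 dpp and −0.10 at 10.5 dpp (−0.14 to −0.06), a difference of 1.87. miR-743b-5p had 1.62 and −0.41 (−0.63 to −0.20), a difference of 2.03. For miR-743b-3p (1.93 and −0.04, a difference of 1.97) and miR-743a-5p (1.97 and −0.14, a difference of 2.11), the counting interval of the 10.5 dpp ratio included 0. All 4 differences rest on T6-12K, the library in which every member had its lowest CPM.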

How the results depend on the processing

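No paired analysis was possible because every condition had 1 library and no test was made. Adding 1 CPM or keeping only miRNAs whose mean reached 100 CPM moved none of the 7 summed ratios beyond counting error, and the shares of members were likewise unmoved when limited to members with 50 reads in every library. Of 70 ratios of single members (10 members in 7 comparisons), 0 reversed or moved with 1 CPM added, nor did the 42 that passed the filter on the mean. With 1 CPM added, 4 members (5 without) were at least 2-fold higher in T10 than in T6, against 8.98% of all miRNAs with reads in both libraries. For T10-12K below T10 it was 2 (3), against 35.3%, and for T6-12A above T6-12K 9 (10), against 22.2%. With the filter, the counts were 2, 1 and 6 of 6 members, against 8.33%, 26.7% and 21.5% of the miRNAs kept. Depth limits miR-741-5p and miR-743a-5p most.

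Values are log2 ratios of summed levels. With the values as deposited, they were 0.18 for TAD against T6 and T10 (0.89 in CPM), 0.95 for T10 against T6 (0.87), −0.42 for the 6.5 dpp cultures against T6 (−0.57), −0.88 for the 10.5 dpp cultures against T10 (−0.56), 1.16 and 0.26 for AlbuMAX I against KSR at 6.5 and 10.5 dpp (1.41 and 0.23) and 0.88 for TAD against the cultures (1.45). With reads taken without regard to depth, TAD against T6 and T10 reversed to −2.15 and TAD against the cultures to −0.98, and the cultures gave −0.91 and −1.34 and the media 1.53 and 0.48. Median-of-ratios factors gave 1.08, 0.85, 0.039 (reversed), −0.0024, 0.86, 0.25 and 1.07 in the same order as the deposited values. With the trimmed mean of M-values the 6.5 and 10.5 dpp cultures reversed to 0.12 and 0.20, and the others were 0.98 (TAD against T6 and T10), 0.64 (T10 against T6), 0.94 (media at 6.5 dpp) and 0.81 (TAD against the cultures). Of the members at least 2-fold higher in TAD than in T6 and T10 (3 in CPM), 0 remained as deposited, with reads without regard to depth and at 4-fold. With reads without regard to depth, 7 members were at least 2-fold lower in TAD. Of all miRNAs with reads in both libraries compared, 85.8% were then at least 2-fold below T6 and 92.4% below T10. TAD was 1.39 above T6 alone and 0.52 above T10 alone. Chosen after seeing the data, the cultures taken singly gave −1.44 (T6-12K), −0.026 (T6-12A), −0.68 (T10-12K) and −0.45 (T10-12A), and TAD was 1.19 above the cultures without T6-12K.

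Single members reversed as follows, in the order miR-470-5p, miR-871-3p, miR-741-3p, miR-881-3p, miR-871-5p, miR-743b-3p, miR-743b-5p, miR-743a-3p, miR-743a-5p and miR-741-5p. With reads without regard to depth, TAD against T6 and T10 gave −1.96, −2.58, −2.33, −1.41, −2.42, −1.48, −1.49, −2.60, −1.54 and −1.84, and TAD against the cultures −0.95, −1.26, −1.03, −0.35, −0.48, −0.37, −0.28, −0.46, −0.059 and −0.57. These reads also gave 0.15 for miR-871-5p in AlbuMAX I against KSR at 10.5 dpp. As deposited, TAD against T6 and T10 gave −0.25 for miR-871-3p, −0.0028 for miR-741-3p, −0.10 for miR-871-5p and −0.28 for miR-743a-3p. For the 6.5 dpp cultures against T6, median-of-ratios factors gave 0.16 for miR-470-5p and 0.27 for miR-881-3p, and the trimmed mean of M-values gave 0.23 for miR-470-5p, 0.046 for miR-741-3p and 0.35 for miR-881-3p. For the 10.5 dpp cultures against T10, median-of-ratios factors gave 0.20 for miR-470-5p and 0.047 for miR-881-3p, and the trimmed mean of M-values gave 0.40 for miR-470-5p, 0.033 for miR-871-3p, 0.032 for miR-741-3p, 0.25 for miR-881-3p, 0.0089 for miR-743b-3p and 0.19 for miR-741-5p. The direct comparison of reads makes TAD low by its construction, since TAD had the fewest reads; the cause of the other reversals was not tested.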
